A study of Mus musculus with 15 samples.

Results

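The nuclear-encoded subunits of respiratory complexes II to V were followed across 3 diets in mouse hemibrain. Members were all genes whose RefSeq symbol begins with Uqcr, Atp5 or Cox4 to Cox8, or is Cyc1, Sdha, Sdhb, Sdhc or Sdhd. The rule used names and no measured value to choose the genes, and the brightest probe in the hemibrain channel then stood for each gene. It found 48 of the 20972 genes with a symbol on the array: 4 subunits of complex II, 9 of complex III, 18 of complex IV and 17 of complex V. In the hemibrain channel 46 of the 48 passed the filter on low signal, among 22557 genes tested in all. Of these 22557 only 13763 had a symbol. Every other one was a single probe without a symbol, counted as a gene in each share of all genes below. All 46 were well above background on all 15 arrays, so none passed through 1 diet alone. Cox7b2 and Cox8c, isoforms known from testis, were above background in the hemibrain channel on 0 arrays and were not tested. The subunits encoded by mitochondrial DNA and those of complex I are outside the rule.

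The animals were male C57BL/6j mice fed from 3 weeks of age for 24 weeks, on diets matched for calories. Polyunsaturated fats of the n-3 and n-6 series stood at 7:1 in ERD, the n-3 enriched feed, at 1:1 in BLD, the balanced feed, and at 1:6 in STD, the standard feed. There were 5 arrays for every feed, with RNA of the left hemibrain labelled with Cy5 and RNA of the same reference, a pool of 11 mouse cell lines, labelled with Cy3. The log ratio is the log2 of Cy5 over Cy3, so a value of 1 is a 2-fold higher signal in hemibrain than in the reference. A dye effect is part of every log ratio, because hemibrain RNA always carried Cy5. Each channel was also read alone, as the log2 signal relative to the median gene of the same array. In the Cy3 channel a difference between diets is a difference between arrays, since the RNA was the same.

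Complex II, succinate dehydrogenase, passes electrons from succinate to coenzyme Q and is also an enzyme of the citric acid cycle. Complex III passes them from coenzyme Q to cytochrome c, and complex IV from cytochrome c to oxygen. Complexes III and IV pump protons across the inner mitochondrial membrane, and complex V, the ATP synthase, uses their return to make ATP. Neurons depend on this supply for ion pumping and synaptic transmission, and several complex IV subunits have isoforms that differ between tissues.

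The number of spots detected well above background in the hemibrain channel was lowest on ERD 1, at 17720, and highest on BLD 4, at 31991. ERD 1 also had the lowest median correlation with the other arrays, 0.844 across genes, against 0.884 to 0.936 for the rest. The files record 8 slides, scanned on 2 days, and the 4 arrays of the second day were ERD 4, BLD 2, BLD 3 and BLD 4. No STD array was scanned on that day. These 4 arrays stood apart in the reference channel. Of the 46 members, 31 (67.4%) had lower Cy3 levels on all 4 of these arrays than on any of the 11 others, against 29.4% of all genes. They were 2 of 4 subunits of complex II, 8 of 9 of complex III, 10 of 16 of complex IV and 11 of 17 of complex V. In Cy5 the same held for 12 members (26.1%), against 6.44% of all genes. The part of the scan day in each difference between diets was not tested by these counts. Values within the first scan day, which holds 4 ERD, 2 BLD and 5 STD arrays, are given for several members of lowest p.

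**Figure D1:**
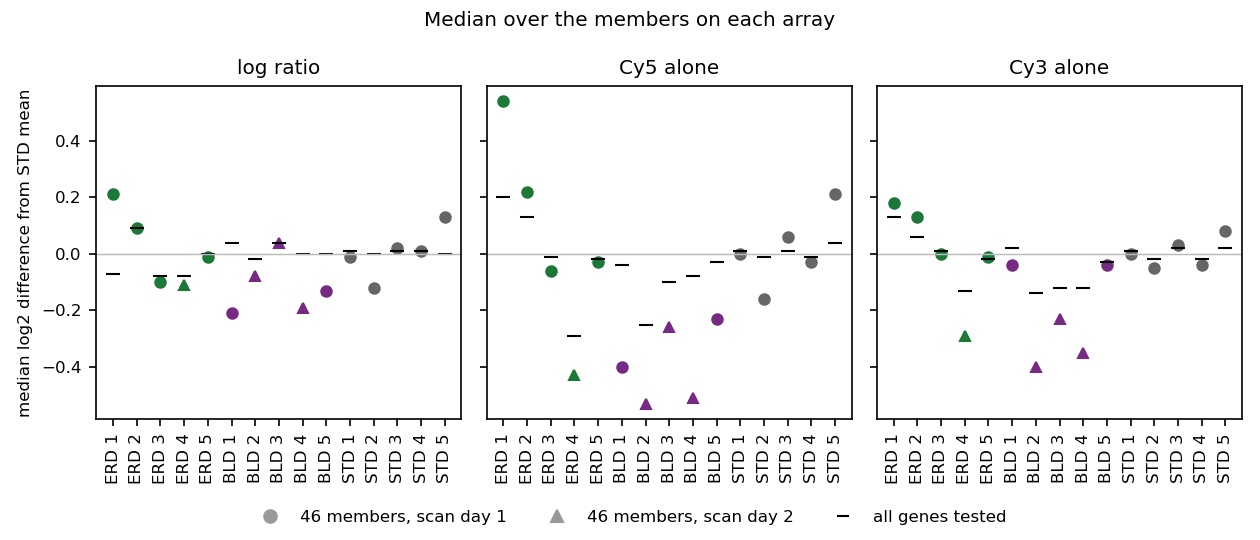
Median over the 46 members on each array of the log2 difference from the mean of the 5 STD arrays, for the log ratio and for each channel alone; circles are arrays of the first scan day, triangles arrays of the second, and dashes the median of all genes tested. In Cy3 the 4 triangles lie between -0.40 and -0.23 and the other arrays between -0.05 and 0.18.

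Markers of neurons, astrocytes, oligodendrocytes, microglia, endothelium and choroid plexus were detected. Of 10 neuronal markers 9 were well above background in Cy5 on all 15 arrays, as were 7 of 8 for astrocytes, 7 of 8 for oligodendrocytes and 7 of 8 for microglia. Of 6 markers of striated muscle, Acta1 and Tnni2 were well above background in Cy5 on all 15 arrays, Tnnt3 and Myh4 on 2 each, and Ckm and Mylpf on 0. In whole hemibrain, fewer cells of a type and less RNA per cell cannot be told apart.

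In all 3 comparisons and all 3 readouts, 0 of the 46 members passed an adjusted p of 0.05 (limma, Benjamini-Hochberg over 22557 genes). Single members had unadjusted p under 0.05 in the log ratio: 10 (21.7%) in ERD against STD, 10 (21.7%) in BLD against STD and 4 (8.7%) in ERD against BLD. The shares of all genes were 20.8%, 12.8% and 12.2% in the same order. Uqcrc1 and Cox7a1 had the largest positive differences in ERD against STD, and Atp5g3 and Atp5mpl the largest negative ones. In Cy5 alone the members lay mostly on one side in the comparisons with BLD. All 46 members had higher means in ERD than in BLD, and 41 had lower means in BLD than in STD. In Cy3 42 lay on the same side in each of these comparisons. Of all genes 57.1% were higher in ERD than in BLD in Cy5, and 64.3% in Cy3. In BLD against STD 40.7% of all genes were above 0 in Cy5, and 39.5% in Cy3. The median standard error of a member's log ratio difference was 0.17, and with 5 arrays a diet the number of arrays limits the precision.

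**Figure D2:**
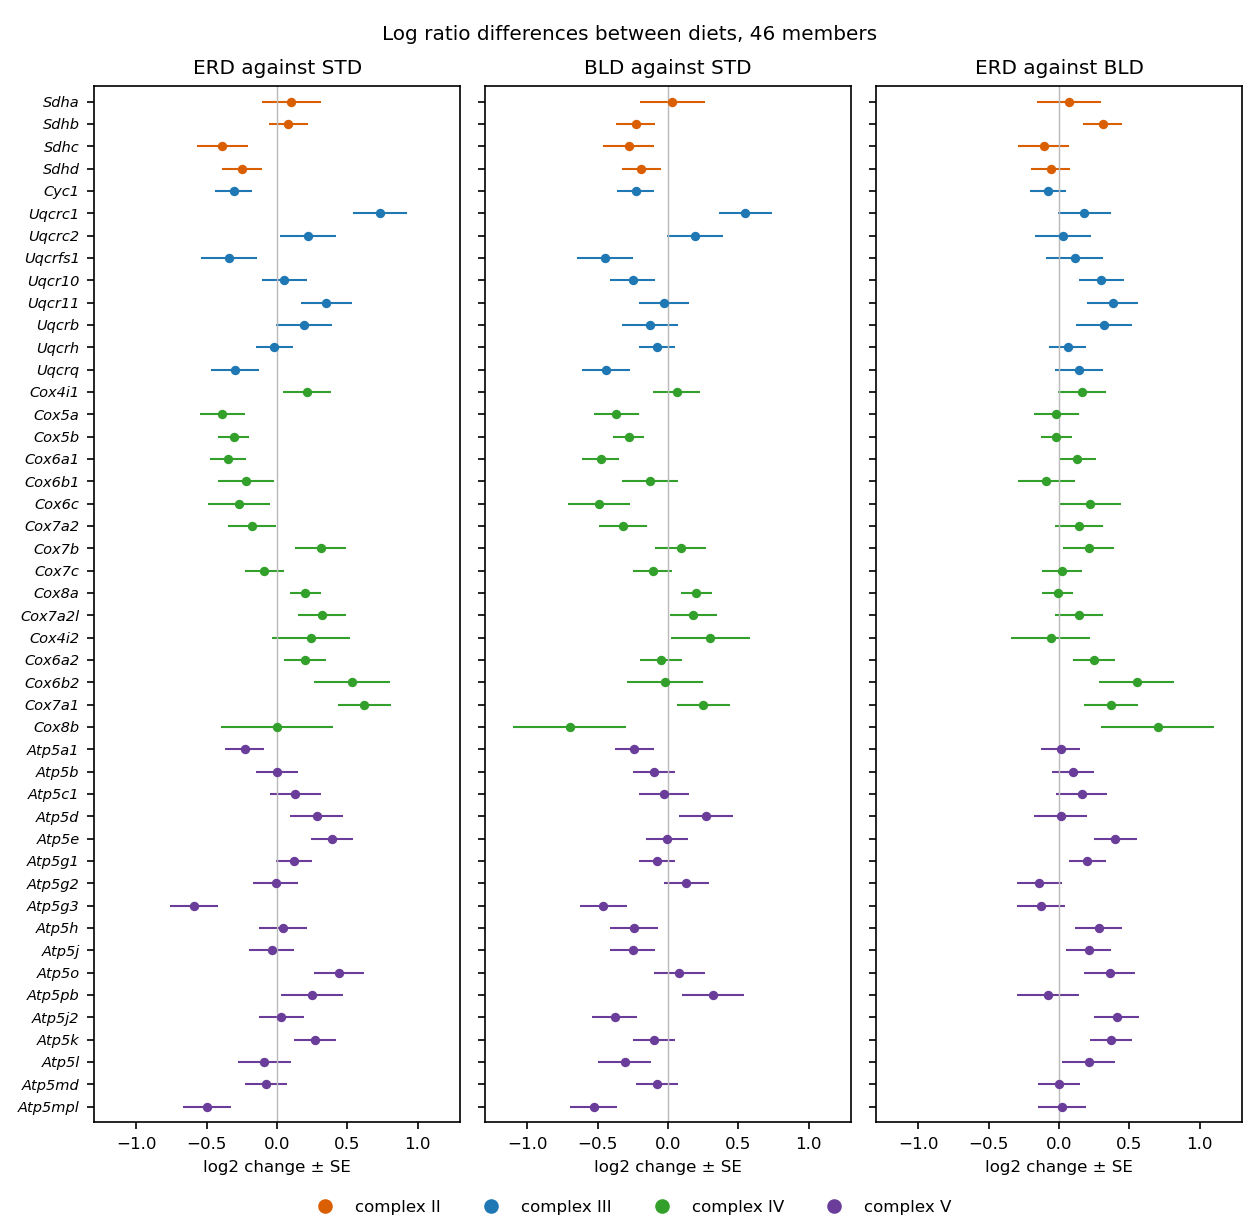
Log2 difference in the log ratio with its standard error (bars) for the 46 members tested, ordered by complex and role and coloured by complex, in the 3 comparisons of diets. In ERD against STD they run from -0.59 for Atp5g3 to 0.73 for Uqcrc1, and in ERD against BLD 34 of 46 lie above 0.

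Most members gave a higher signal in hemibrain than in the reference. On the STD diet 39 of the 46 had a mean log ratio above 0, on BLD 41 and on ERD 42. The 7 below 0 on STD were the complex II anchors Sdhc and Sdhd, the Rieske iron-sulfur protein Uqcrfs1, the stalk subunit Atp5pb and the isoforms Cox4i2, Cox6a2 and Cox7a1. Sdhd had means of -0.97 ± 0.19 in ERD, -0.90 ± 0.16 in BLD and -0.72 ± 0.19 in STD (SD, n = 5 each). Cox8b, the muscle and brown fat isoform of subunit 8, had log ratios of 2.8 to 5.58, but its reference signal was above background on only 2 ERD, 2 BLD and 3 STD arrays. Its ratio therefore has a weak denominator, and no fold is drawn from it.

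The comparison of ERD with STD asks how the n-3 enriched diet differs from the standard one. Of the 22557 genes 43 (0.191%) passed the adjusted threshold in the log ratio, and 0 of the 46 members did. At an unadjusted p under 0.05 there were 10 members (21.7%), 4 higher and 6 lower, against 20.8% of all genes, a share close to the background. The median member difference was 0.03 and that of all genes was -0.04. By complex the medians were -0.08 for complex II, 0.05 for complex III, 0.10 for complex IV and 0.03 for complex V.

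Uqcrc1, a core subunit of complex III that faces the mitochondrial matrix, had the lowest p of the members. Its log ratios were 1.34, 1.54, 1.94, 1.72 and 1.5 on the ERD arrays, 0.87, 1.39, 1.4, 1.47 and 2.02 on the BLD arrays, and 0.76, 0.78, 1.15, 0.69 and 1.03 on the STD arrays. Every ERD array was above every STD array, while BLD 1 lay inside the STD range. The difference of ERD from STD was 0.73 ± 0.19 (SE), or 1.65-fold higher, with an unadjusted p of 0.00209 and an adjusted p of 0.0941 (limma). In the first scan day alone it was 0.70, and on the 3 slides that held both diets it was 0.77, 1.18 and 0.81. In Cy5 alone it was 0.80 ± 0.25, with no overlap between the diets either.

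The other core subunit and the redox subunits of complex III differed in sign. Cyc1, the cytochrome c1 that hands electrons to cytochrome c, had log ratios of -0.15, -0.1, 0.23, -0.09 and 0.22 on ERD arrays and of 0.26, 0.32, 0.23, 0.25 and 0.58 on STD arrays. The ranges met at 0.23, and the difference was -0.31 ± 0.13 (adjusted p = 0.205). Uqcrfs1, the Rieske protein, had a difference of -0.34 ± 0.20 and Uqcrc2, the second core subunit, one of 0.22 ± 0.20. Uqcrc2 was low on STD 5, at -0.36, against 0.39 to 0.79 on the other STD arrays. Among the 5 small subunits Uqcr11 had 0.35 ± 0.18 and Uqcrq -0.30 ± 0.17. Within this complex the members thus differed in sign, and 1 had an unadjusted p under 0.05 in each direction.

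Atp5g3 (now Atp5mc3) encodes the c subunit, whose ring turns as protons pass through complex V. Its log ratios were -0.11, 0.43, 0.52, 0.31 and 0.84 on ERD, 0.78, 0.5, 0.59, 0.45 and 0.31 on BLD and 0.89, 0.79, 1.08, 0.99 and 1.2 on STD. Of the ERD arrays only ERD 5 reached into the STD range, and every BLD array was below every STD array. The difference of ERD from STD was -0.59 ± 0.17, with an adjusted p of 0.107 (limma). Without ERD 5 it was -0.70 with an adjusted p of 0.0446 (limma), and without ERD 1 it was -0.46. With slide as a block it was -0.42, with an adjusted p of 0.595 (limma). It was -0.47 under normexp background correction with loess, and -0.57 in the first scan day alone. On the 3 slides that held both diets it was -0.35, -0.38 and -0.15. Atp5g1 and Atp5g2, whose mature c subunit is the same protein, had differences of 0.12 ± 0.13 and -0.01 ± 0.16. Of the 3 c-subunit genes only Atp5g3 had an unadjusted p under 0.05, and the difference between these genes was not tested.

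Atp5mpl, a small subunit in the membrane part of complex V, had log ratios of 0.69, 0.59, 0.35, 0.48 and 0.36 on ERD and 0.99, 0.61, 1.08, 0.96 and 1.33 on STD. The difference was -0.50 ± 0.17 (adjusted p = 0.143), and STD 2 was the only STD array within the ERD range. Atp5e and Atp5o lay on the other side. Atp5e, the epsilon subunit of the F1 head, had 1.05, 1.19, 0.85, 0.74 and 0.94 on ERD and 0.51, 0.52, 0.61, 0.52 and 0.67 on STD, a difference of 0.39 ± 0.15 without overlap, or 0.22 under normexp background correction with loess. Atp5o, the stalk subunit that binds the F1 head, had a difference of 0.44 ± 0.18, also without overlap. The catalytic subunit Atp5b had a difference of 0.00 ± 0.15 and its partner Atp5a1 one of -0.23 ± 0.14. Atp5b was low on STD 5, at 0.56, against 1.06 to 1.25 on the other STD arrays.

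In complex IV the leading positive difference was that of a tissue isoform. Cox7a1, known from heart and skeletal muscle, had log ratios of 0.55, 0.59, -0.06, 0.02 and 0.22 on ERD arrays and of -0.47, -0.53, -0.35, -0.22 and -0.2 on STD arrays. The diets did not overlap, and the difference was 0.62 ± 0.19 (adjusted p = 0.121, limma). It was 1.12, 0.41 and 0.44 on the 3 slides that held both diets. Under normexp background correction with loess it was 0.32 with an adjusted p of 0.453. Of the muscle markers Acta1 and Tnni2 were measured, with differences of -0.04 ± 0.17 and 0.29 ± 0.25, and the summed level of both in Cy5 ran from -0.40 to 0.67 on ERD and from -0.31 to 0.18 on STD. The part of muscle RNA in this difference was not tested.

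Several general complex IV subunits had negative differences in ERD. Cox5b, a subunit that binds zinc on the matrix side, had log ratios of 0.91, 0.79, 0.91, 0.97 and 0.82 on ERD and 1.17, 1.07, 1.08, 1.33 and 1.27 on STD, without overlap. The difference was -0.31 ± 0.11 (adjusted p = 0.159), and -0.63 under normexp with loess. Cox6a1 had -0.35 ± 0.13 and Cox5a -0.39 ± 0.16, each with ranges that overlapped. In the first scan day alone ERD differed from STD by -0.33 for Cox5b, -0.34 for Cox6a1 and 0.68 for Cox7a1. For Atp5mpl, Atp5e and Cyc1 the differences on those arrays were -0.50, 0.44 and -0.28. Of the 10 general subunits 7 had a negative difference, 3 of them with an unadjusted p under 0.05, and of the 5 tissue isoforms 1 had a negative one. In all, 5 members had ERD and STD ranges that stayed apart (10.9%), Uqcrc1, Cox7a1, Atp5e and Atp5o on the higher side and Cox5b on the lower, against 5.76% of all genes.

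**Figure D3:**
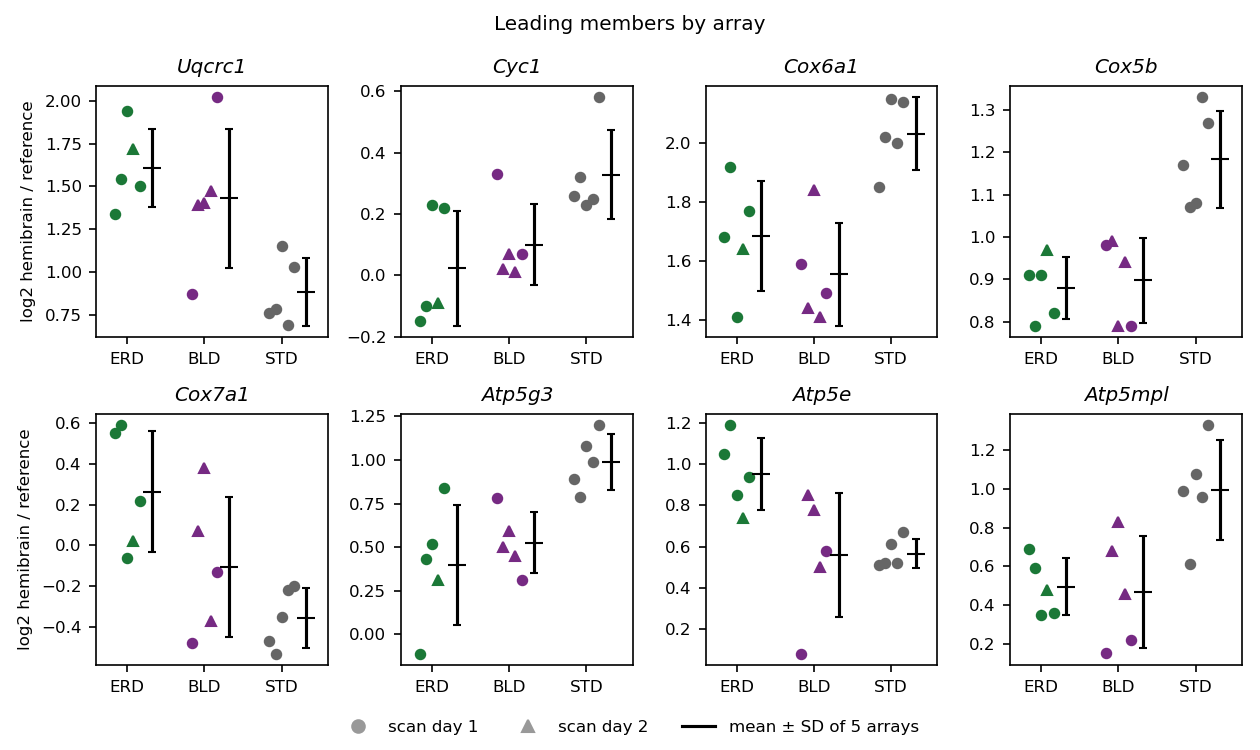
Log2 ratio of hemibrain to reference on each array for 8 members, with circles for the first and triangles for the second scan day, and the mean with SD of 5 arrays at the side. Uqcrc1, Cox7a1 and Atp5e lie higher on every ERD array than on any STD array, and Cox5b lower; each panel has its own scale.

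The comparison of BLD with STD asks how the balanced diet differs from the standard one, and it shares the STD arrays with the comparison above. In the log ratio 1 gene (0.00443%) and 0 members passed the adjusted threshold. At an unadjusted p under 0.05 there were 10 members (21.7%), against 12.8% of all genes. Of these 9 were lower in BLD (19.6%), against 6.18% of all genes, and Uqcrc1 was higher. The median member difference was -0.11, that of all genes was 0.00, and 33 of 46 members were below 0. Of all genes 49.6% were above 0. By complex the medians were -0.21, -0.13, -0.08 and -0.10 for II, III, IV and V.

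Cox6a1, the general isoform of a subunit thought to regulate complex IV, had the lowest p. Its log ratios were 1.59, 1.44, 1.84, 1.41 and 1.49 on BLD and 1.85, 2.02, 2.15, 2 and 2.14 on STD. The ranges did not overlap, though BLD 3 came within 0.01 of STD 1. The difference was -0.48 ± 0.13, or 1.39-fold lower, with an unadjusted p of 0.00289 and an adjusted p of 0.231 (limma). In the first scan day alone it was -0.49 with only 2 BLD arrays. In Cy5 alone it was -0.76 ± 0.19, again without overlap.

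Atp5mpl had 0.15, 0.68, 0.83, 0.46 and 0.22 on BLD arrays, and its difference from STD was -0.53 ± 0.17 (adjusted p = 0.27). It was -0.81 in the first scan day alone. Atp5g3 had -0.46 ± 0.17 and Uqcrc1 0.55 ± 0.19. Uqcrq, a small subunit of complex III that binds near the coenzyme Q site, had 0.61, 0.63, 0.44, 0.8 and 0.98 on BLD and 1.16, 0.85, 1.24, 1.13 and 1.26 on STD, a difference of -0.44 ± 0.17. Only BLD 5 reached into the STD range for this gene, and the difference was -0.16 with slide and -0.25 with scan day as a block. Cox5a had 0.77, 0.66, 0.77, 0.65 and 0.6 on BLD and 0.86, 0.91, 0.9, 1.17 and 1.47 on STD, a difference of -0.37 ± 0.16 without overlap. In the first scan day alone, with 2 BLD arrays, the differences were -0.44 for Atp5g3, 0.56 for Uqcrc1, -0.33 for Uqcrq, -0.38 for Cox5a and -0.30 for Cox5b, each with the sign of the full set. With slide as a block Atp5g3 had -0.24 and Uqcrc1 0.93. Cox5b (-0.28 ± 0.11, and -0.48 under normexp with loess) and Atp5g3 also did not overlap, nor did Cox8a (0.20 ± 0.11), which was on the higher side. With Cox6a1 these were 5 members (10.9%), against 4.35% of all genes. Some of these margins were narrow. Atp5g3 had a highest BLD value of 0.78 and a lowest STD value of 0.79. Cox8a had a lowest BLD value of 1.98 and a highest STD value of 1.97.

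The small subunits of complexes III and V were all on one side. All 5 small subunits of complex III and all 5 small membrane subunits of complex V had negative differences, with medians of -0.13 and -0.31. The median of all genes was 0.00, and 49.6% of all genes were above 0. Atp5j2, the f subunit, had a difference of -0.38 ± 0.16, which was -0.52 in the first scan day alone, Atp5l, the g subunit, one of -0.31 ± 0.19 and Atp5md -0.08 ± 0.15.

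The comparison of ERD with BLD asks whether the 2 diets richer in n-3 differ. In the log ratio 0 genes (0%) passed the adjusted threshold. At an unadjusted p under 0.05 there were 4 members (8.7%), against 12.2% of all genes. All 4 were higher in ERD, against 3.96% of all genes on that side. They were Atp5j2 with 0.41 ± 0.16, Atp5e with 0.40 ± 0.15, Atp5k, the e subunit, with 0.37 ± 0.15, and Sdhb with 0.31 ± 0.14. The smallest adjusted p was 0.354 (limma). Their ranges overlapped in each case. In the first scan day alone, with 2 BLD arrays, the differences were 0.61, 0.68, 0.40 and 0.41 in the same order. Under normexp with loess Atp5e had 0.19 and Sdhb 0.18, and the second probe of Sdhb gave -0.07. The only member without overlap (2.17%, against 1.39% of all genes) was Atp5g1, with 1.14, 0.99, 1.09, 1.06 and 0.99 on ERD, 0.78, 0.71, 0.99, 0.83 and 0.97 on BLD, and a difference of 0.20 ± 0.13. Its highest BLD value and its lowest ERD value were both 0.99 to 2 decimals.

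Uqcr11 had a difference of 0.38 ± 0.18, Uqcrb, which binds coenzyme Q, one of 0.32 ± 0.20 and Uqcr10 one of 0.30 ± 0.16. Under normexp with loess these were 0.38, 0.28 and 0.04, and in the first scan day alone 0.51, 0.39 and 0.52. In ERD against BLD 34 of the 46 members were above 0, with a median of 0.14, while 46.7% of all genes were above 0, with a median of -0.03. By complex 2 of 4, 8 of 9, 11 of 16 and 13 of 17 members of II, III, IV and V were above 0. The median was 0.19 in the first scan day alone, 0.12 with slide as a block, 0.07 under normexp with loess and 0.08 without ERD 1, the array of lowest correlation. Within slides it was -0.10 on slide 1 (ERD 4 against BLD 2 and BLD 3), 0.46 on slide 3 (ERD 1 against BLD 1) and 0.13 on slide 7 (ERD 5 against BLD 5), so the sign was not shared by the 3 slides.

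The 4 subunits of complex II are described in full, since they are the whole complex. Sdha, the flavoprotein that oxidises succinate, had log ratios of 1.07, 0.69, 0.21, 0.49 and 0.61 on ERD, 0.49, 0.51, 0.46 and 0.7 on the 4 BLD arrays with a value (BLD 1 was left out as an outlier spot), and 0.6, 0.87, 0.51, 0.82 and -0.24 on STD. Its differences were 0.10 ± 0.21 for ERD and 0.03 ± 0.23 for BLD against STD, and the low STD 5 lay apart from the rest. Sdhb, the iron-sulfur subunit, had 1.83, 1.66, 1.24, 1.38 and 1.3 on ERD, 0.95, 1.25, 1.36, 1.06 and 1.25 on BLD and 1.5, 1.21, 1.43, 1.47 and 1.41 on STD. Its difference of ERD from STD was 0.08 ± 0.14 and that of BLD -0.23 ± 0.14.

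The anchors that hold complex II in the membrane had lower means in ERD. Sdhc had -0.73, -0.85, -0.2, -0.62 and -0.29 on ERD, 0.12, -0.52, -0.88, -0.35 and -0.54 on BLD and -0.11, -0.13, -0.13, -0.29 and -0.08 on STD. The difference of ERD from STD was -0.39 ± 0.18 (adjusted p = 0.242, limma), and the second probe of Sdhc gave -0.09. Sdhd had a difference of -0.25 ± 0.14 in ERD and of -0.19 ± 0.14 in BLD, each against STD. In the log ratio none of the 4 subunits was without overlap in any comparison. In Cy5 alone Sdhb was lower on every BLD array than on any STD array, with a highest BLD value of 6.34 and a lowest STD value of 6.35.

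The isoform pairs of complex IV showed no call. Cox4i1, the general isoform of subunit 4, had means of 1.54 ± 0.21 in ERD, 1.38 ± 0.32 in BLD and 1.33 ± 0.20 in STD (SD, n = 5). Cox4i2, the isoform induced by low oxygen, had 0.15 ± 0.55, 0.21 ± 0.53 and -0.09 ± 0.24 in the same order. Cox6a2, the heart and muscle isoform, had -0.52 ± 0.07, -0.77 ± 0.26 and -0.72 ± 0.24, and the smallest of its unadjusted p in the log ratio was 0.12. Cox6b1 had differences from STD of -0.22 ± 0.20 in ERD and -0.13 ± 0.20 in BLD. Cox6b2, known from testis, had 2.34, 3.27, 2.8, 1.61 and 2.45 on ERD, 1.79, 1.68, 1.89, 1.93 and 2.43 on BLD and 2.38, 1.99, 2.12, 1.53 and 1.81 on STD. Its difference of ERD from STD was 0.53 ± 0.27 (adjusted p = 0.273), with overlap, and 0.85 ± 0.25 in Cy5 alone.

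The general isoforms Cox7a2 and Cox7b had differences of ERD from STD of -0.18 ± 0.17 and 0.31 ± 0.18. Cox7a2l, which joins complexes III and IV into supercomplexes, had 0.32 ± 0.17, with 0.41 and -0.39 from its other probes. Cox8a had 0.20 ± 0.11 in both ERD and BLD against STD. Cox8b, whose reference signal was mostly below background, had 0.00 ± 0.40 and -0.70 ± 0.40, values that rest on that weak denominator. Atpif1, the inhibitor of ATP synthase, is no member by the rule and had log ratio differences of 0.04 ± 0.14 in ERD and -0.14 ± 0.14 in BLD against STD.

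Further probes served as a check of the probe chosen for each gene. Of the 46 members 16 had 22 further probes that passed the filter. The sign was shared by 15 of the 22 in ERD against STD, 19 in BLD against STD and 15 in ERD against BLD. All 4 further probes of Atp5l shared the sign of the chosen one in the 3 comparisons. One further probe of Uqcr10 gave -0.76 in ERD against STD where the chosen one gave 0.05. Uqcrc1, Atp5g3, Cox6a1 and Cox7a1, leading members in the comparisons with STD, had 1 probe each, so this check was not possible for them. Atp5e also had 1 probe. In ERD against BLD the further probe of Sdhb gave -0.07 where the chosen one gave 0.31. In BLD against STD it gave 0.06 where the chosen one gave -0.23. The further probes of Atp5j2 and Atp5k gave 0.25 and 0.39 in ERD against BLD, with the sign of the chosen ones.

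In the comparisons with BLD each channel alone gave a larger median shift than the log ratio. In Cy5, where 1 gene (0.00443%) and 0 members passed the adjusted threshold in BLD against STD, 16 members (34.8%) had an unadjusted p under 0.05, against 14.4% of all genes. All 16 were lower in BLD, against 8.89% of all genes on that side. The median member difference was -0.41 and that of all genes was -0.10. By complex the medians were -0.47, -0.48, -0.41 and -0.36. Cox8b had the largest difference, -1.02 ± 0.29, followed by Uqcrq with -0.81 ± 0.27 and Atp5mpl with -0.79 ± 0.21.

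In Cy3, which holds the reference RNA, the median member difference of BLD from STD was -0.20 and that of all genes was -0.07. There 16 genes (0.0709%) and 0 members passed the adjusted threshold, and 14 members (30.4%) had an unadjusted p under 0.05, against 16.6% of all genes. All 14 were lower in BLD, against 11.3% of all genes. Cox4i1 had the largest Cy3 difference, -0.48 ± 0.18. Its Cy3 levels were 6.76, 5.72, 6.28, 6.13 and 6.62 on BLD and 6.81, 6.67, 6.83, 6.76 and 6.83 on STD. The low BLD values were those of BLD 2, BLD 3 and BLD 4, the arrays of the second scan day. ERD 4, the ERD array of that day, had 6.31, against 7.15, 6.75, 6.9 and 6.72 on the other ERD arrays. Cox8a (-0.43 ± 0.17), Cyc1 (-0.43 ± 0.17) and Atp5h (-0.42 ± 0.17), a stalk subunit, followed in Cy3.

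Under quantile normalization the medians of BLD against STD were -0.23 in Cy5 and -0.05 in Cy3. With slide as a block the Cy3 median was 0.01, with scan day as a block -0.02 and in the first scan day alone -0.04. The Cy5 median was -0.21, -0.18 and -0.31 under the same 3 settings, and that of the log ratio was -0.12, -0.12 and -0.17. These values rest on few arrays: the first scan day holds 2 BLD arrays, and slide 7 alone holds both diets, with 1 array each. The Cy5 and log ratio medians kept their sign under the 3 settings.

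**Figure D4:**
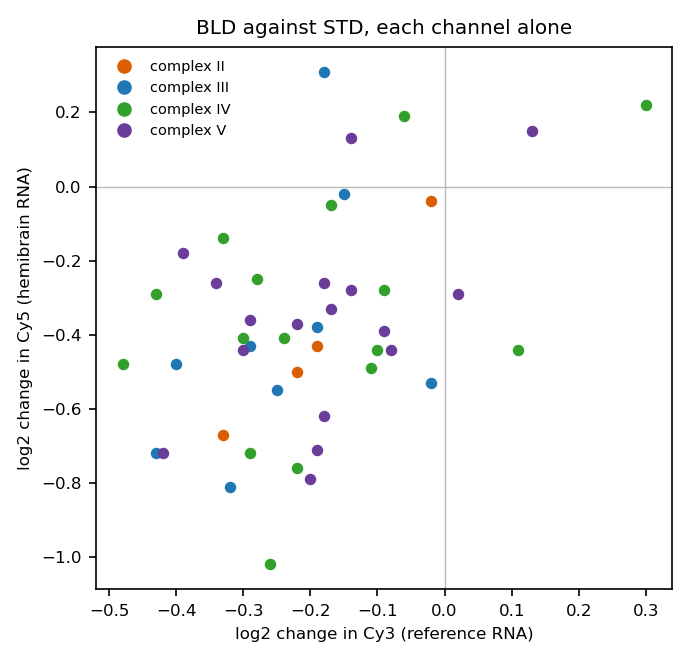
Log2 difference of BLD from STD in the reference channel (Cy3, horizontal) and in the hemibrain channel (Cy5, vertical) for the 46 members, coloured by complex. Of the 46, 42 lie below 0 in Cy3 and 41 below 0 in Cy5. Of all genes 39.5% were above 0 in Cy3 and 40.7% in Cy5.

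Cell type markers are given beside these member values. In the log ratio of BLD against STD 9 of 10 neuronal markers were below 0 (median -0.46), 7 of 8 for astrocytes (-0.36) and 8 of 8 for oligodendrocytes (-0.23). So were 5 of 8 for microglia (-0.21), 6 of 6 for choroid plexus (-0.20), 3 of 6 for endothelium (-0.05) and 2 of 4 for red blood cells (-0.23). Of these markers 0 passed the adjusted threshold, and 49.6% of all genes were above 0. The channels alone differed from this. In Cy5 the medians were -0.02, -0.25, -0.26, -0.40, -0.41, -0.14 and 0.75 in the same order. In Cy3, the reference, they were 0.49, 0.23, 0.12, -0.01, -0.17, 0.06 and 1.18. Of the 10 neuronal markers 5 were lower in BLD in Cy5, and 8 were higher in Cy3. The summed level of 8 astrocyte markers, on the log2 scale relative to the median gene, ran from 8.37 to 9.16 on BLD and from 9.33 to 9.64 on STD, without overlap, and from 8.41 to 9.80 on ERD. Of the 8 markers 5 had lower Cy5 means in BLD than in STD. The sum is mostly the signal of the enzyme gene Aldoc, whose Cy5 difference was -0.82 ± 0.26 and whose log ratio difference was -0.59 ± 0.16. Gfap, an intermediate filament of astrocytes, had 1.29 ± 0.30 in Cy5, the opposite sign, and 1.42 ± 0.27 in Cy3. Neuronal markers ran from 8.57 to 9.04 on BLD and from 8.78 to 8.83 on STD, and red blood cell markers from 7.31 to 9.91 and from 7.59 to 8.44. Their part in the member differences was not tested.

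In ERD against BLD, Cy5 alone, 0 genes (0%) passed the adjusted threshold and 14 members (30.4%) had an unadjusted p under 0.05, against 14.1% of all genes. All 14 were higher in ERD, against 8.83% of all genes on that side. The median was 0.40, against 0.08 for all genes, and 0.28 without ERD 1. All 46 were above 0, with values from 0.10 to 0.79, against 57.1% of all genes above 0. Relative to STD, the member medians ran from -0.43 on ERD 4 to 0.54 on ERD 1. On BLD they ran from -0.53 on BLD 2 to -0.23 on BLD 5, so the arrays of the 2 diets overlapped. In Cy3 the median was 0.19, against 0.07, and 42 of 46 were above 0, against 64.3% of all genes. In that channel 0 genes (0%) passed the adjusted threshold. There 11 members (23.9%) had an unadjusted p under 0.05, against 9.06% of all genes. All 11 were higher in ERD, against 7.33% of all genes on that side. Under quantile normalization instead, the member medians were 0.10 in Cy5 and 0.03 in Cy3. Uqcr11 had the largest Cy5 difference, 0.79 ± 0.25, and Cox4i1 the largest in Cy3, 0.47 ± 0.18. In the first scan day alone the medians were 0.46 in Cy5 and 0.09 in Cy3, from 4 ERD and 2 BLD arrays.

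In ERD against STD the channels differed less. In Cy5 2 genes (0.00887%) and 0 members passed the adjusted threshold, and 5 members (10.9%) had an unadjusted p under 0.05, against 17.4% of all genes. They were Cox6b2, Uqcrc1 and Cox7a1 on the higher side and Atp5g3 and Atp5mpl on the lower. In Cy3 0 genes passed, and 0 members had an unadjusted p under 0.05, against 2.55% of all genes. For Uqcrc1 the Cy3 levels were 3.81, 3.79, 3.61, 3.24 and 3.61 on ERD and 3.61, 3.45, 3.67, 3.51 and 3.6 on STD, so the reference levels of both diets overlapped. The Cy5 levels of Uqcrc1 were 5.16, 5.17, 5.47, 4.76 and 4.95 on ERD and 4.24, 4.1, 4.67, 4.05 and 4.48 on STD.

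Promoters were looked at because the complexes are known to share regulators, among them NRF1, GABP (an ETS factor), the estrogen-related receptors (ERR) and YY1. RefSeq windows of 300 bases, from 250 before to 50 after the start, were at hand for 36 of the 48 members (GRCm38.p6). Motif letters were searched on both strands: CCGGAAG for ETS, GCGCATGC for NRF1, AAGGTCA for ERR and AAGATGGCG for YY1. An NRF1 match can overlap its own match on the other strand. The ETS letters were in 13 of the 36 windows (36.1%), against 9.93% of 27025 genes with a window and 17.6% of the 10949 of them tested here. The NRF1 letters were in 7 (19.4%, against 3.05% and 5.43%), the ERR letters in 5 (13.9%, against 5.38% and 4.1%) and the YY1 letters in 2 (5.56%, against 1.64% and 3.19%). A match describes letters and not binding, and base composition was not matched.

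The 150 bases before the start are shown for the member of lowest unadjusted p of each complex, in lower case with motif letters in capitals, 5′ to 3′ on the gene's strand. The stretch for Uqcrc1 is chr9:108936498-108936647 (+ strand), for Cox6a1 chr5:115348959-115349108 (- strand), for Atp5g3 chr2:73911327-73911476 (- strand) and for Sdhb chr4:140961121-140961270 (+ strand), all in GRCm38.p6. The capitals are the ETS letters in Cox6a1, the ERR letters in Atp5g3 and the NRF1 letters in Sdhb, each as they read on the opposite strand. Uqcrc1 has none in this stretch, but its 300-base window holds NRF1 letters at positions 31 to 40 relative to the start. Also outside the stretch, Cox6a1 has NRF1 letters at -162 to -153 and Sdhb has ETS letters at 7 to 13.
Uqcrc1: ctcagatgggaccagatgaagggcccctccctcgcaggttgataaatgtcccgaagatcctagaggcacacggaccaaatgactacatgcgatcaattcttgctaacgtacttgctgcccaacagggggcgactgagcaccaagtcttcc
Cox6a1: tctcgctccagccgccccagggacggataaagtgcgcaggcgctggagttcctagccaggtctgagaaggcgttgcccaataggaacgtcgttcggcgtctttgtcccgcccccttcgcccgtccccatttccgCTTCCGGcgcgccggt
Atp5g3: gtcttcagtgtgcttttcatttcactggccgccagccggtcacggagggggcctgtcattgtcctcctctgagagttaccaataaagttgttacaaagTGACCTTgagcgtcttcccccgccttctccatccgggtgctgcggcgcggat
Sdhb: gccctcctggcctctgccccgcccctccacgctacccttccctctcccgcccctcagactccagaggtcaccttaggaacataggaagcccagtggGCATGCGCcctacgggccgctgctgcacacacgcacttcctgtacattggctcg

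The other genes of the pathway are given by list. In ERD against STD 0 of the 4 complex II, 5 complex III, 22 complex IV and 5 complex V assembly factors tested passed the adjusted threshold, and their log ratio medians were -0.35, 0.13, -0.02 and -0.18. Sdhaf2, which helps attach flavin to Sdha, had a difference of -0.45 ± 0.17, and Uqcc2 and Uqcc3, needed to build complex III, had 0.47 ± 0.15 and 0.33 ± 0.14. Cox16 and Coa6, which act in building complex IV, had -0.64 ± 0.20 and -0.47 ± 0.15. Dmac2l had -1.26 ± 0.31 with an adjusted p of 0.0835 (limma). Of 16 genes of electron carriers and coenzyme Q synthesis 3 had an unadjusted p under 0.05 on each side (20.8% of all genes had one on either side), led by Coq8b with 0.71 ± 0.17 and Pdss2, which makes the side chain of coenzyme Q, with -1.70 ± 0.48.

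In ERD against STD 20.8% of all genes had an unadjusted p under 0.05 on either side. Of 11 genes of ATP and phosphate export 1 had one on the higher side, Ak3 with 0.55 ± 0.13. On the lower side there were 3, among them the phosphate carrier Slc25a3 with -0.39 ± 0.12. Of 18 regulators of mitochondrial biogenesis 1 was higher and 1 lower by this count. They were Nrf1, the factor of the motif above, with 0.50 ± 0.15 and Gabpa with -0.41 ± 0.18. Timm44, part of the inner membrane import motor, had 0.56 ± 0.15 among 15 genes of the outer membrane and cristae. In these lists 0 genes passed the adjusted threshold.

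In BLD against STD 0 genes of the same lists passed. Sdhaf4 had -0.46 ± 0.14, Coq6, an enzyme of coenzyme Q synthesis, -0.50 ± 0.16, Ak3 0.48 ± 0.13 and Cox14 -0.37 ± 0.14. Ppargc1a, the coactivator that drives mitochondrial biogenesis, had -0.58 ± 0.28 and Esrra, one of the ERR factors, -0.24 ± 0.13. The list medians ran from -0.19 to 0.04.

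In ERD against BLD 0 genes of these lists passed, and Uqcc2 had 0.49 ± 0.15, Nrf1 0.40 ± 0.15, Gabpa -0.46 ± 0.18 and Tomm40, the pore of the outer membrane, 0.44 ± 0.15. Coa5 had -1.40 ± 0.42 and Pdss2 -1.58 ± 0.48. The median of the regulators was 0.10 and that of the members 0.14, against -0.03 for all genes.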

How the data were processed

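Hemibrain RNA was measured on 15 Agilent 2-colour arrays, 5 a diet, grouped by the diet each label gives; every title, whatever the diet, includes "control". The deposited scanner files hold, per the file headers, processed intensities that are background-subtracted and dye-normalized, and the log10 ratio of Cy5 over Cy3; the deposited series values equal these log10 ratios within 5e-10. Their headers name version 11.5.1.1 of Agilent's scanner software, Feature Extraction, and the submitters' processing notes give 10.7.

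Log ratios were put on a log2 scale. Outlier spots (0.574%) were left out, spots of a probe averaged, and a probe was kept if 5 or more arrays had it well above background in Cy5 and 8 or more values remained. The brightest probe stood for each symbol, and each kept probe without a symbol was counted as a gene of its own. For single channels the log2 of the deposited processed intensities was centred on each array's median. One limma 3.58.1 model (R 4.3.3) over the 15 arrays, with 12 residual degrees of freedom, gave 2-sided p, adjusted by Benjamini-Hochberg over 22557 genes. Each array has its own sample code, but the labels do not say that each code is 1 animal, so p measure the spread between these samples, which may be technical. Slide and scan day were read from the files. Symbols came from RefSeq accessions (27656 of 55681 probes), and the array's older build gives no coordinates here. Figures were drawn with matplotlib 3.10.9 under Python 3.11.15, and the fit was tested on simulated data.

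The members and gene lists were chosen with earlier results of these data known. Genes named were drawn, per comparison, from the 3 of lowest p of each complex. They also came from the 4 of largest Cy3 difference in BLD against STD and from 2 of each list. The complex II subunits and the isoform pairs with Atpif1 were named as well, with others where a count or role called for them. Not every difference of these genes is printed. Alternatives were other background and dye corrections, filters, probe summaries, array weights, slide and scan day as blocks, and each array left out. The restriction to the first scan day and the scan day block for single channels were added after seeing the data.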

Additional observations from a re-analysis of the deposited data

Results flagged for a closer look

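In 72 groups of 5 arrays, 4 values lay far from the other 4 arrays of their diet, and chance sets apart about 1 in 20 groups. The groups were log ratios of the members of lowest p, and medians over all members in each readout. All 4 values were log ratios of single members. Cox8b had 5.58 on STD 5, against 3.39 to 4 on the other STD arrays. Cyc1 had 0.33 on BLD 1, the other BLD arrays lying between 0.01 and 0.07, and 0.58 on STD 5, the others lying between 0.23 and 0.32. Sdhc had -0.29 on STD 4, and the remaining STD arrays gave -0.13 to -0.08.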

How the results depend on the processing

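Over 30 alternatives the median member difference in the log ratio ran from -0.03 to 0.09 in ERD against STD, from -0.17 to -0.08 in BLD against STD and from 0.07 to 0.20 in ERD against BLD. With array weights 1 member passed in ERD against STD (Uqcrc1, 0.80, adjusted p = 0.0425) and 1 in BLD against STD (Cox6a1, -0.52, adjusted p = 0.0404), and over the arrays left out the count in ERD against STD was 0 to 1, with Atp5g3 at -0.70 (adjusted p = 0.0446) without ERD 5. The cause was not tested. Over all alternatives the adjusted p of Uqcrc1 ran from 0.0425 to 0.321, that of Atp5g3 from 0.0446 to 0.595 and, in BLD against STD, that of Cox6a1 from 0.0404 to 0.871. The sign turned for differences near 0: Sdhb in ERD against STD was -0.0031 without the 3 least correlated arrays and, over the arrays left out, -0.01 (without ERD 1) to 0.14 (without ERD 3). In ERD against BLD, Sdhc was 0.01 with the mean of all kept probes and -0.22 (without BLD 3) to 0.03 (without BLD 1) over the arrays left out, and Sdhd 0.01 in the first scan day and -0.13 (without BLD 3) to 0.0039 (without ERD 4) over the arrays left out. Cox8b in ERD against BLD, whose reference signal was mostly below background, also turned, from 0.70 to -0.04 with normexp and loess. Quantile normalization gave medians of 0.10 in Cy5 and 0.03 in Cy3 for ERD against BLD. No paired analysis was possible because the labels give the animals no numbers that join diets, and replicates are numbered in the order of deposition only.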
